A study of Mus musculus with 16 samples.

Results

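The 46 genes described here encode the protein machinery of the chemical synapse. They were chosen by name for the roles of their proteins, with earlier results of these data known, and each symbol was found on 1 line of both deposited expression tables, which hold 55471 lines each. By role they fall into 7 synapsins and other vesicle membrane proteins, 5 synaptotagmins, 3 Rab3 GTPases, 3 vesicular transmitter transporters, 6 SNAREs and complexins, 8 active zone proteins, 2 neurexins, 3 neuroligins and 9 postsynaptic scaffold proteins. The first 7 of these roles, 34 genes, were counted as presynaptic and the neuroligins and scaffolds, 12 genes, as postsynaptic. Of the 46 genes, 45 passed the filter on low values (a mean of at least 0.1 TPM) in each fit, and *Slc17a6* did not.

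The libraries came from neural stem cells (NSC) of C57BL/6 mouse cortices at E15 to E16, prepared by the study from pooled embryos of mixed sex and grown as an adherent monolayer. All cultures received a lentivirus, with a scrambled shRNA (shRNA-CON) or with an shRNA against the long noncoding RNA RUS (shRNA-RUS), and RNA was taken on day 5, when the medium was changed to start differentiation, or on day 7. There are 4 libraries in each of the 4 groups, 16 in all. As a model the series is limited to 1 shRNA sequence against RUS and to mixed cultures read in bulk, in which fewer cells of a type and less RNA per cell cannot be told apart. The question asked of the synaptic genes was how their RNA differed between shRNA-RUS and shRNA-CON on each day, and whether the presynaptic and the postsynaptic genes moved alike.

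At a chemical synapse, transmitter is loaded into vesicles by vesicular transporters, and vesicles are tethered by synapsins, docked and primed at the active zone by Rab3, RIM and Munc13 proteins, and fused with the membrane by SNARE proteins when synaptotagmins bind calcium. On the other side of the cleft, neuroligins bind the neurexins of the presynaptic membrane, and scaffolds of the PSD-95, SAPAP, Shank and Homer families or, at inhibitory synapses, gephyrin hold receptors in place. Many of these genes are silent or low in progenitors and rise as neurons mature, and many carry a binding element for the repressor REST, called RE1, near the start of transcription.

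To show what such an element looks like in these genes, RefSeq promoter windows of GRCm38.p6, from 250 bases before to 50 bases after each start of transcription that RefSeq gives (54 windows in all for the synaptic genes), were searched on both strands for TTCAGCACC, the 9 letters at the left of the RE1 consensus. Windows were held for 36 of the 46 genes, and 3 of these (8.33%) had a match, against 0.433% of the 27025 genes with a window. The matches are printed with the bases that follow them, the 9 letters in capitals. In *Syn1* the match is on the gene's strand and starts 232 bases before the RefSeq start (chrX:20921130-20921150, gene on the minus strand). In *Unc13a* it is on the opposite strand (chr8:71671727-71671747, gene on the minus strand). The 21 bases printed for *Unc13a* lie after the start, the nearest at base 10, and the 9 letters are at the end farther from it. In *Nlgn1* the match is on the gene's strand and starts 153 bases before an internal RefSeq start (chr3:26154119-26154139, gene on the minus strand), far inside the gene as GENCODE vM21 annotates it (chr3:25426215-26332460).
Syn1: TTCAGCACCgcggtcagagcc
Unc13a: TTCAGCACCgggggcgcggac
Nlgn1: TTCAGCACCctggttactata

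The other motifs searched were the cAMP response element TGACGTCA, which was in the window of *Syn1* and of no other of the 36 genes and in 2.03% of all genes, and the GC box GGGCGG, which was in 28 of the 36 (77.8%) and in 38.2% of all genes. Read on the opposite strand, GGGCGG is CCGCCC, whose first letters can be the last letters of TTCAGCACC, and in 0 of the 36 genes did matches of these motifs share bases. The 36 synaptic genes had 54 windows and all 27025 genes had 32851, so the synaptic genes had more windows per gene in which a match could be found. These matches are letters in a window and no measure of binding.

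Levels are given as scaled TPM, the deposited TPM divided by a library factor between 0.845 and 1.10. The tables hold no counts, and sequencing depth is therefore unknown. RUS itself (*Gm20754*) was near the limit of detection, at 0.117 to 0.236 scaled TPM with shRNA-CON and 0 to 0.345 with shRNA-RUS on day 5, and at 0.238 to 0.661 and 0 to 0.50 on day 7, so the groups overlapped on both days and the level of the target does not check the labels. The highest of the day 5 values was that of the library labelled shRNA-RUS day 5 replicate 4. Over all genes that library also lay nearer to the controls than the rest of its group, at 0.548 of the way from the control mean to the mean of the other 3 libraries, where the other shRNA-RUS libraries lay between 0.741 and 0.894. Several counts of calls that rest on day 5 libraries are therefore given both with it and without it.

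Markers of some cell types moved with the groups, while the sums of the neuronal markers overlapped between shRNA-CON and shRNA-RUS on both days. The 10 neuronal markers summed to between 788 and 877 scaled TPM with shRNA-CON and between 764 and 889 with shRNA-RUS on day 7, and 3 of them were called higher and 4 lower. In the same comparison all 6 microglial markers were lower (sum of 181 to 193 with shRNA-CON and 76.2 to 97.6 with shRNA-RUS), as were 6 of the 7 markers of the oligodendrocyte lineage (374 to 411 and 238 to 262), while the astrocyte markers (1602 to 1651 and 1719 to 1933) had 2 higher and 1 lower of 6 and the markers of NSC and radial glia (6798 to 7051 and 7021 to 7679) 2 higher and 3 lower of 7. On day 5 the sums were 617 to 709 and 682 to 743 for neurons, 12460 to 14600 and 17730 to 21230 for NSC and radial glia, 3209 to 3337 and 4181 to 4321 for astrocytes, 247 to 329 and 166 to 254 for the oligodendrocyte lineage, and 77.7 to 82.8 and 66.7 to 84.7 for microglia. The sum for NSC and radial glia rested on *Vim* and *Fabp7*, which were called higher with *Pax6*, while *Nes* (-0.87 ± 0.07) and *Hes5* (-0.67 ± 0.21) were called lower, and the rise of the astrocyte sum rested on *Gfap* (0.60 ± 0.06), while *Slc1a2* was called lower (-0.65 ± 0.12). The day 5 calls were 2 higher and 3 lower for neurons, 3 and 2 for NSC and radial glia, 1 and 1 for astrocytes, 0 and 4 for the oligodendrocyte lineage and 0 and 2 for microglia. No marker was at 0 in all libraries. The part of these markers in the results that follow was not tested.

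On day 5 the synaptic genes moved in both directions with shRNA-RUS. Of the 45 genes tested, 7 were called higher and 8 lower (limma, adjusted p under 0.05), where 14.8% of all genes tested were called higher and 17.9% lower. On day 7 the picture was one-sided, with 28 genes called higher and 4 lower, against 23.4% and 25.8% of all genes. Among genes that averaged 1 TPM or more, as most of the synaptic genes did, 22.4% were called higher and 24.2% lower on day 5, above the 15.6% and 17.8% of the synaptic genes, and 33% and 34% on day 7. The median log2 fold change of the 45 genes was -0.09 on day 5, beside -0.06 over all genes tested, and 0.38 on day 7, beside -0.03. Groups that did not overlap were seen for 6 genes above and 8 below the controls on day 5 (14.1% and 18.7% of all genes) and for 26 above and 4 below on day 7 (22.3% and 24.7%).

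The split on day 5 depends on the scaling: 5 higher and 11 lower with TPM as deposited, where the median of all genes was -0.21 and 7.83% of all genes were called higher and 26.7% lower, and 7 and 5 after quantile normalization, beside 14.8% and 14.7%. Without the library labelled shRNA-RUS day 5 replicate 4 it was 7 and 11, against 17.4% and 20.3% of all genes. On day 7 the count of higher calls stayed between 27 and 28 under every scaling, filter and left-out library tried.

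**Figure D1:**
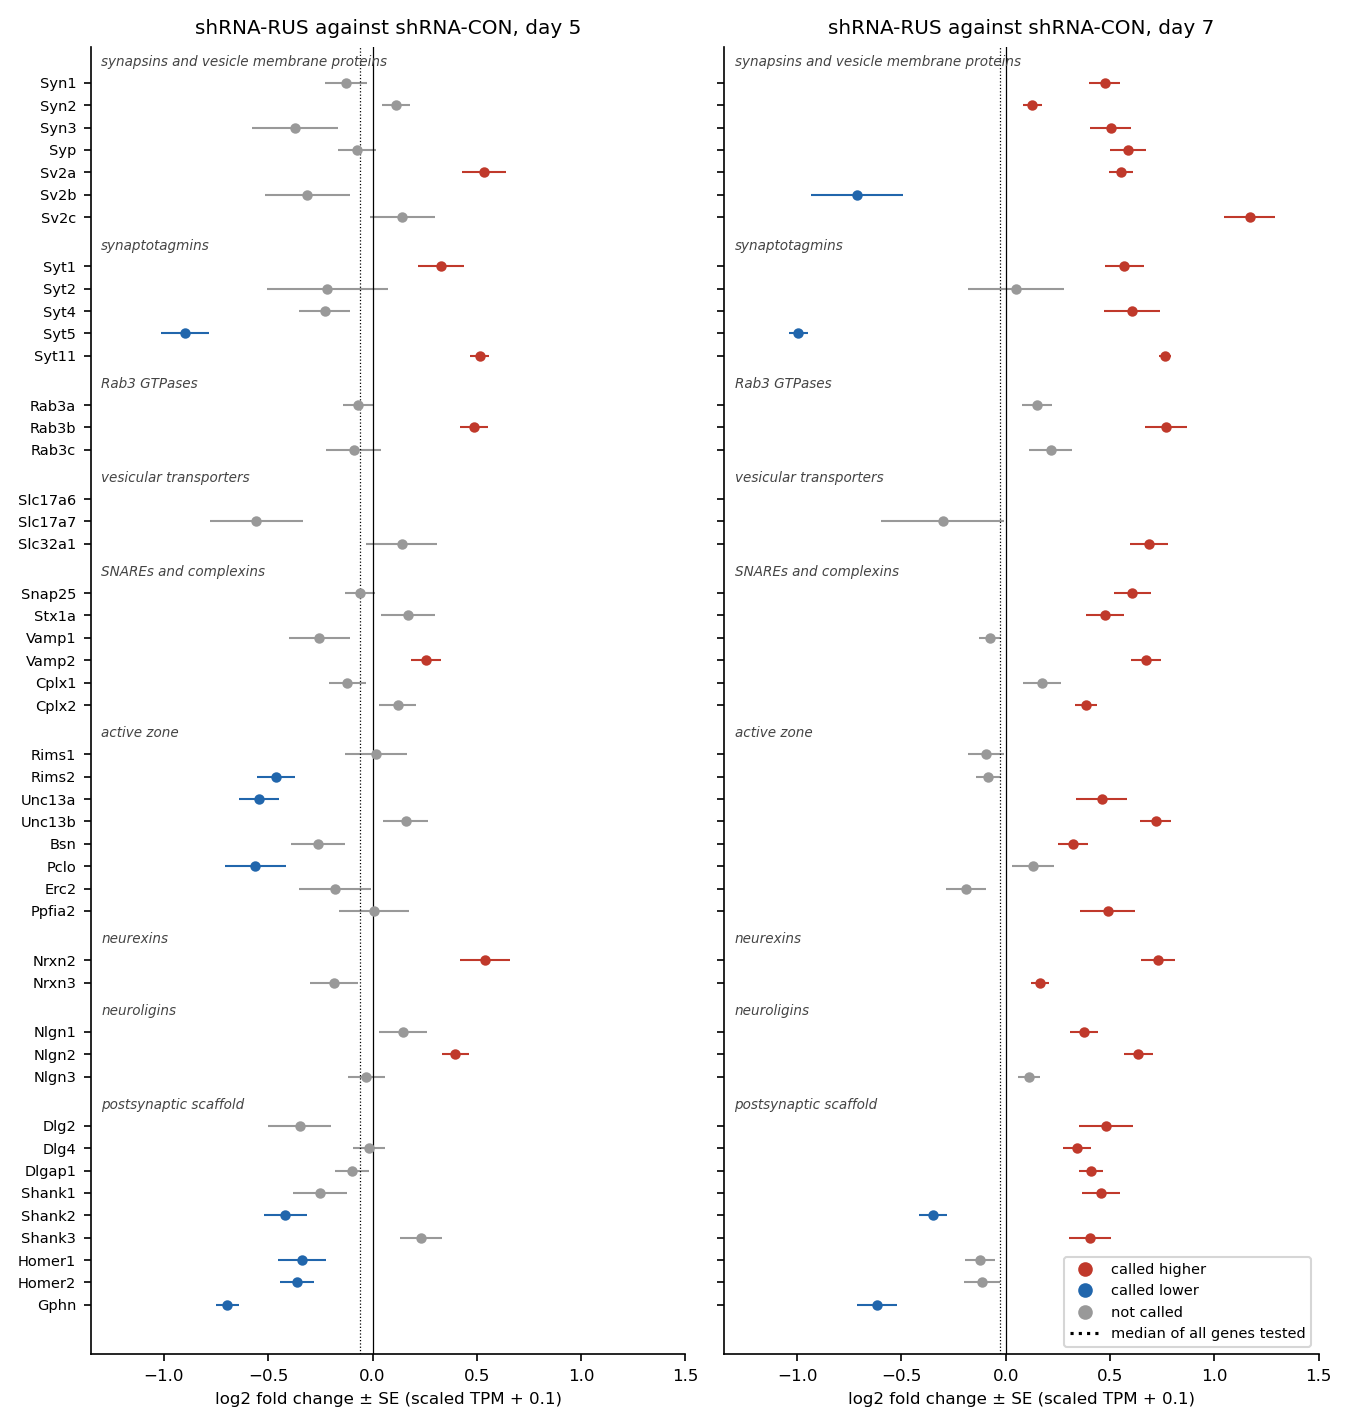
Log2 fold change of shRNA-RUS against shRNA-CON (points) with its standard error (bars) for each synaptic gene, with day 5 in the left panel and day 7 in the right, 4 libraries a group; red marks genes called higher, blue lower and grey not called, and the dotted line is the median of all genes tested. *Slc17a6* was not tested. The 28 red points on day 7 come from each of the 9 roles, while *Syt5*, *Sv2b*, *Shank2* and *Gphn* lie to the left.

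Taking both days together, 7 genes were called higher on both (*Sv2a*, *Syt1*, *Syt11*, *Rab3b*, *Vamp2*, *Nrxn2* and *Nlgn2*), as were 9.7% of the 21762 genes tested on both days, and 3 lower on both (*Syt5*, *Shank2* and *Gphn*), as were 12%. A further 20 were called higher on day 7 alone (14.8% of all genes), *Sv2b* was called lower on day 7 alone (14.1%), and *Rims2*, *Pclo*, *Homer1* and *Homer2* were called lower on day 5 alone (5.15%). *Unc13a* was called lower on day 5 and higher on day 7, a combination held by 1.23% of all genes. The other 9 genes were called on neither day, as were 37.4%. When the library labelled shRNA-RUS day 5 replicate 4 was left out, *Nrxn3* and *Dlg2* joined *Unc13a*, which made 3 genes called lower on day 5 and higher on day 7, as were 2.21% of all genes in that fit. *Shank3* then took the place of *Syt1* among the 7 genes higher on both days (10.1% of all genes), *Vamp1* was added to those lower on day 5 alone (5 genes, 6.49%), and 18 were called higher on day 7 alone (13.4%) and 8 on neither day (35%).

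Of the synapsins and vesicle membrane proteins, 6 of 7 rose on day 7 and *Sv2b* fell, while on day 5 only *Sv2a* was called. Among all genes 23.4% were called higher and 25.8% lower on day 7, and 14.8% and 17.9% on day 5. *Sv2c*, a glycoprotein of the vesicle membrane, had the largest fold change of the 45 genes on day 7 with the pseudocount of 0.1. It stood at 0.821, 0.762, 0.669 and 0.730 scaled TPM in the shRNA-CON libraries and at 1.77, 1.63, 1.91 and 1.78 in the shRNA-RUS libraries of day 7. The groups did not overlap, and the log2 fold change was 1.17 ± 0.12 (SE, adjusted p = 3.99e-05). With a pseudocount of 1 it was 0.70 (adjusted p = 3.52e-05), below the 0.76 of *Syt11* and the 0.72 of *Nrxn2*. On day 5 the same gene ran from 0.928 to 1.08 with shRNA-CON and from 0.935 to 1.39 with shRNA-RUS and was not called (0.14 ± 0.16, adjusted p = 0.525).

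Its paralog *Sv2a*, the most widely expressed SV2 protein, was called on both days. On day 5 it was at 13.8, 11.3, 11.5 and 10.9 scaled TPM with shRNA-CON and at 17.0, 16.7, 20.5 and 14.98 with shRNA-RUS, a log2 fold change of 0.53 ± 0.11 (adjusted p = 0.0047), and on day 7 at 9.31 to 10.3 and 13.8 to 15.6 (0.55 ± 0.06, adjusted p = 4.45e-05). Every shRNA-RUS library lay above every control of its day. *Sv2b*, the lowest of the SV2 genes, went the other way on day 7, from a range of 0.422 to 0.543 to one of 0.191 to 0.343 (-0.71 ± 0.22, adjusted p = 0.0237), and lost its call in 5 of 15 alternatives, each of which left out 1 library, with an adjusted p of up to 0.0613. With a pseudocount of 1 its fold change was -0.25 (adjusted p = 0.0167).

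The synapsins, which tether vesicles to each other and to actin, were all called higher on day 7. *Syn2* had the highest level of the 7, with 26.6, 28.1, 28.3 and 26.4 scaled TPM under shRNA-CON and 28.5, 29.6, 31.1 and 29.2 under shRNA-RUS on day 7. Its groups were apart by little, and its call (0.13 ± 0.05, adjusted p = 0.043) was lost in 11 of 16 alternatives. *Syn1*, which carries the RE1 letters printed above, went from 8.44 to 9.44 up to 10.8 to 13.1 (0.48 ± 0.08, adjusted p = 0.000577). *Syn3* was at 5.03, 3.75, 4.15 and 4.43 with shRNA-CON and at 6.74, 6.10, 5.76 and 5.83 with shRNA-RUS on day 7 (0.50 ± 0.10, adjusted p = 0.00199), after 3.29, 1.66, 2.39 and 2.10 against 1.43, 1.77, 1.69 and 2.15 on day 5, where the groups overlapped. Synaptophysin (*Syp*), a membrane protein that marks synaptic vesicles, rose from 10 to 10.95 up to 14.2 to 18.7 on day 7 (0.59 ± 0.09, adjusted p = 0.000356), and on day 5 its ranges overlapped (9.49 to 11.7 and 8.75 to 10.8).

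The synaptotagmins held both the highest synaptic transcript and the largest decrease. *Syt11*, a synaptotagmin that does not bind calcium and is found outside neurons too, was at 301, 285, 304 and 297 scaled TPM with shRNA-CON and at 412, 421, 426.5 and 433 with shRNA-RUS on day 5, and at 219, 226, 218 and 225 against 382, 379.5, 370 and 362 on day 7. It rose on both days with the smallest standard error of the list (0.51 ± 0.04, adjusted p = 6.41e-05, and 0.76 ± 0.03, adjusted p = 1.53e-07), and the day 5 value was 0.31 after quantile normalization (adjusted p = 0.0063). *Syt5*, a calcium sensor of dense-core as well as synaptic vesicles, did the opposite. It stood at 13.1, 11.9, 12.6 and 13.4 with shRNA-CON and at 7.85, 7.32, 6.86 and 5.33 with shRNA-RUS on day 5, and at 24.8, 24.8, 25.8 and 23.6 against 12.3, 12.1, 11.98 and 12.7 on day 7. Its level with shRNA-RUS was 0.536 and 0.502 times that of the controls (-0.90 ± 0.12, adjusted p = 0.000447, and -0.99 ± 0.05, adjusted p = 3.13e-07), and no library of the groups overlapped.

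*Syt1*, the calcium sensor of fast release, was higher on day 7 (5.93 to 6.87 against 8.34 to 10.9, a log2 fold change of 0.57 ± 0.09, adjusted p = 0.000679). Its call on day 5 (0.33 ± 0.11, adjusted p = 0.0473) was lost in 11 of 16 alternatives. Without the library labelled shRNA-RUS day 5 replicate 4 the synaptotagmins had 1 higher and 1 lower on that day, in place of 2 and 1. *Syt4*, which is induced by activity, was at 1.62, 1.54, 1.71 and 2.10 scaled TPM with shRNA-CON and at 3.21, 2.37, 2.45 and 2.66 with shRNA-RUS on day 7 (0.61 ± 0.13, adjusted p = 0.00401), and at 1.79, 1.78, 1.67 and 1.49 against 1.40, 1.39, 1.30 and 1.59 on day 5, where the call was not met (-0.23 ± 0.12, adjusted p = 0.186). *Syt2*, another fast sensor, had group means between 0.483 and 1.17 and was called on neither day.

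The Rab3 GTPases, which mark vesicles for docking, had calls for 1 of the 3 paralogs. *Rab3a*, the highest of them, overlapped between the groups on both days, with 28.1, 27.1, 28.2 and 31.3 scaled TPM against 26.6, 28.02, 29.8 and 24.9 on day 5 and 36.9, 34.6, 33.2 and 30.7 against 37.4, 34.4, 35.7 and 41.4 on day 7 (0.15 ± 0.07, 95% interval -0.01 to 0.31). *Rab3b* was at 27.2, 25.9, 27.8 and 26.0 with shRNA-CON and 38.1, 37.0, 40.9 and 34.0 with shRNA-RUS on day 5, and at 4.81, 4.78, 3.87 and 5.57 against 7.82, 8.13, 7.75 and 8.39 on day 7. It was higher with shRNA-RUS on both days (0.49 ± 0.06, adjusted p = 0.000556, and 0.77 ± 0.10, adjusted p = 0.000179) while falling by more than any other of the 45 genes from day 5 to day 7 in both groups. *Rab3c* was called on neither day (0.22 ± 0.10 on day 7, adjusted p = 0.114).

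Among the vesicular transporters, which give a terminal its transmitter, the one for GABA and glycine was the most abundant by far. *Slc32a1* (VGAT) was at 5.16, 6.32, 6.86 and 5.84 scaled TPM with shRNA-CON and at 9.89, 8.97, 9.47 and 10.2 with shRNA-RUS on day 7. The groups were apart, with a log2 fold change of 0.69 ± 0.09 (adjusted p = 0.000186). On day 5 they overlapped, at 3.77, 3.12, 3.21 and 4.71 and at 4.201, 4.64, 4.46 and 3.03. The glutamate transporter *Slc17a7* (VGLUT1) reached at most 0.751 scaled TPM in a library and was called on neither day, and *Slc17a6* (VGLUT2) reached at most 0.176 and was listed at 0 in 3 of the 16. Levels of these 2 genes are near the limit of what the tables resolve.

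Of the SNAREs and complexins, 4 of 6 were called higher on day 7 and none lower, and the counts by limma at an unadjusted p under 0.05 were 4 and 0, beside 25.9% and 28.4% of all genes. On day 5 there were 1 and 0, and 1 and 1 (*Vamp1*) without the library labelled shRNA-RUS day 5 replicate 4. *Vamp2* (synaptobrevin-2), the vesicle SNARE of the forebrain, was the most abundant, with 134, 135, 140.1 and 133 scaled TPM under shRNA-CON and 188, 211, 214 and 247 under shRNA-RUS. The log2 fold change was 0.67 ± 0.07 (adjusted p = 4.43e-05), and the lowest shRNA-RUS library lay well above the highest control. On day 5 *Vamp2* was at 119, 105, 99.1 and 107 against 116, 132, 138 and 127 (0.25 ± 0.07, adjusted p = 0.0243), with overlap, and lost that call in 9 of 16 alternatives. Its partners on the plasma membrane rose on day 7 too: *Snap25* went from 15.8 to 19.7 up to 23.7 to 29.3 (0.61 ± 0.09, adjusted p = 0.000309) and *Stx1a* from 6.13 to 6.64 up to 8.07 to 10.8 (0.48 ± 0.09, adjusted p = 0.0017). *Cplx2*, a complexin that clamps the SNARE complex, rose by 0.38 ± 0.05 (adjusted p = 0.000231). *Vamp1* (-0.08 ± 0.05) and *Cplx1* (0.17 ± 0.09) were not called on day 7.

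**Figure D2:**
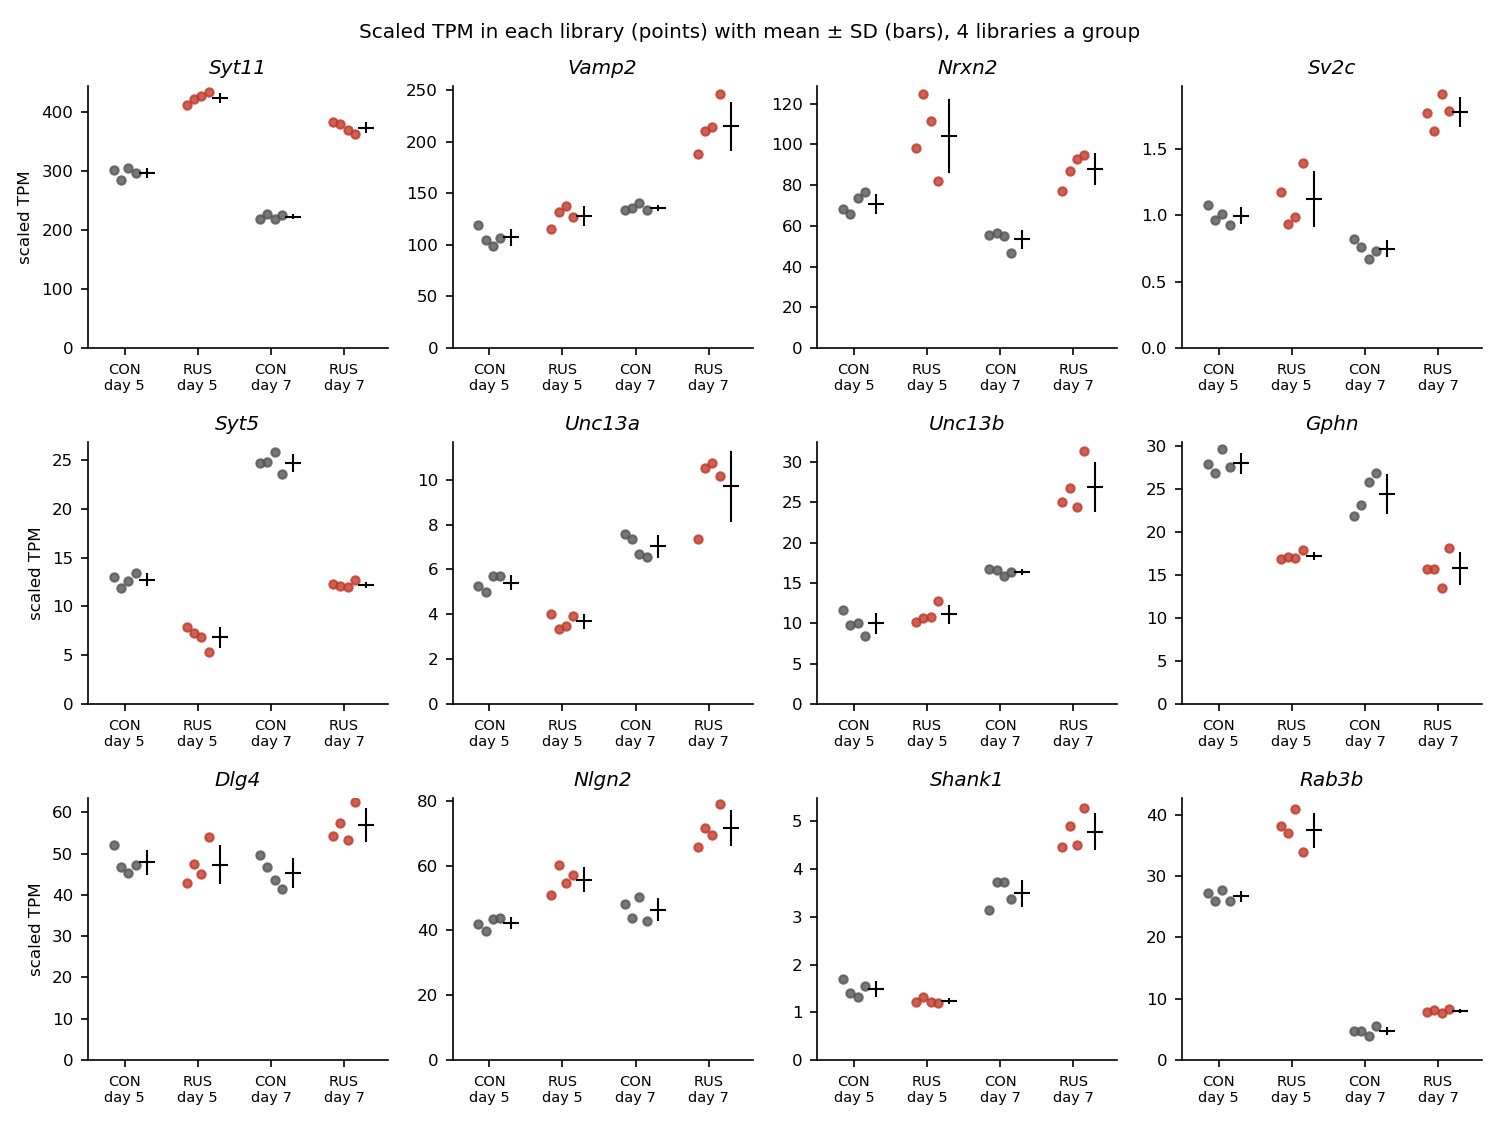
Scaled TPM of 12 synaptic genes (vertical axis from 0) in each of the 4 libraries of a group (points, grey for shRNA-CON and red for shRNA-RUS), with the mean and SD beside them. *Syt11*, *Nrxn2*, *Rab3b* and *Nlgn2* are higher with shRNA-RUS on both days, *Syt5* and *Gphn* lower on both, and *Unc13a* lower on day 5 and higher on day 7.

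The calls among the active zone genes were all toward lower values on day 5 and all toward higher values on day 7. None of the 8 was called higher on day 5 and 3 were called lower, while on day 7 there were 4 called higher and none lower. By limma at an unadjusted p under 0.05 the counts were 0 higher and 3 lower on day 5, beside 19.1% and 23.7% of all genes, and 4 and 0 on day 7, beside 25.9% and 28.4%. *Unc13a* (Munc13-1), which primes vesicles for fusion, stood at 5.24, 5.00, 5.72 and 5.70 scaled TPM with shRNA-CON and at 4.00, 3.34, 3.46 and 3.91 with shRNA-RUS on day 5, with no overlap (-0.54 ± 0.09, adjusted p = 0.00219). On day 7 it stood at 7.60, 7.34, 6.68 and 6.54 against 7.36, 10.5, 10.8 and 10.2 (0.46 ± 0.12, adjusted p = 0.0119). The first shRNA-RUS library of day 7 lay within the range of the controls and the other 3 above it. *Unc13b* (Munc13-2), the most abundant active zone gene, was at 11.7, 9.81, 10.03 and 8.43 against 10.2, 10.7, 10.8 and 12.8 on day 5, and at 16.8, 16.6, 15.9 and 16.3 against 25.1, 26.8, 24.4 and 31.3 on day 7 (0.72 ± 0.07, adjusted p = 3.67e-05).

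The giant scaffolds Piccolo and Bassoon, which organise the active zone, were called on different days. *Pclo* fell on day 5, from 1.85, 1.63, 1.72 and 1.60 scaled TPM with shRNA-CON to 1.07, 0.935, 1.10 and 1.40 with shRNA-RUS (-0.56 ± 0.14, adjusted p = 0.016), and was at 2.41, 2.07, 2.26 and 2.49 against 2.65, 2.59, 2.19 and 2.61 on day 7, where the groups overlapped (0.13 ± 0.10, adjusted p = 0.331). *Bsn* was not called on day 5 (-0.26 ± 0.13, adjusted p = 0.157) and rose on day 7, from 4.44 to 4.82 up to 5.44 to 6.28 (0.32 ± 0.07, adjusted p = 0.0043). *Rims2*, which links Rab3 to Munc13, fell on day 5 from 8.67 to 9.35 down to 5.92 to 7.63 (-0.47 ± 0.09, adjusted p = 0.00419), and its 2 groups overlapped on day 7. The liprin *Ppfia2* rose on day 7 (0.49 ± 0.13, adjusted p = 0.0116), and *Rims1* and *Erc2* were called on neither day. The call of *Pclo* on day 5 was lost after quantile normalization (adjusted p = 0.0576) and with the replicate block (adjusted p = 0.0608), and its fold change was -0.34 with a pseudocount of 1.

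The adhesion molecules that span the cleft moved upward where they were called with all libraries in the fit. *Nrxn2*, a presynaptic neurexin, was at 68.1, 65.6, 73.4 and 76.4 scaled TPM with shRNA-CON and at 98.0, 125, 111 and 82.1 with shRNA-RUS on day 5 (0.54 ± 0.12, adjusted p = 0.00782), and at 55.5, 56.5, 55.1 and 46.4 against 77.1, 86.7, 92.6 and 94.5 on day 7 (0.73 ± 0.08, adjusted p = 6.84e-05). *Nlgn2*, the neuroligin of inhibitory synapses, was at 42.1, 39.8, 43.5 and 43.8 against 50.9, 60.1, 54.7 and 57.1 on day 5 (0.40 ± 0.06, adjusted p = 0.00153) and at 48.3, 43.9, 50.4 and 43.0 against 65.8, 71.8, 69.5 and 78.9 on day 7 (0.64 ± 0.07, adjusted p = 5.28e-05). Neither gene's groups overlapped on either day, and with TPM as deposited the day 5 value of *Nlgn2* was 0.24 (adjusted p = 0.041). *Nrxn3* (0.17 ± 0.04, adjusted p = 0.0111) and *Nlgn1* (0.38 ± 0.07, adjusted p = 0.00112) were called higher on day 7 alone, and *Nlgn3* on neither day. *Nrxn3* was called lower on day 5 without the library labelled shRNA-RUS day 5 replicate 4.

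In the postsynaptic scaffold none of the 9 genes was called higher on day 5 and 4 were called lower, beside 14.8% and 17.9% of all genes. On day 7 there were 5 higher and 2 lower, beside 23.4% and 25.8% of all genes. Leaving out the library labelled shRNA-RUS day 5 replicate 4 made the day 5 counts 1 (*Shank3*) and 5, with *Dlg2* added. By limma at an unadjusted p under 0.05 the day 5 counts were 1 and 5, beside 19.1% and 23.7% of all genes. *Gphn* (gephyrin), the scaffold of glycine and GABA-A receptors, which also takes part in molybdenum cofactor synthesis in other tissues, had the largest decrease of the group. It was at 27.9, 26.9, 29.7 and 27.6 scaled TPM with shRNA-CON and at 16.9, 17.1, 17.0 and 17.9 with shRNA-RUS on day 5 (-0.70 ± 0.05, adjusted p = 4.09e-05), and at 21.9, 23.2, 25.9 and 26.9 against 15.7, 15.7, 13.5 and 18.2 on day 7 (-0.62 ± 0.09, adjusted p = 0.000469). The groups were apart on both days. So the gene of the inhibitory scaffold was lower while that of the inhibitory adhesion molecule, *Nlgn2*, and that of the GABA transporter were higher on day 7.

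*Dlg4* (PSD-95), the main scaffold of excitatory synapses, overlapped on day 5, with 52.1, 46.8, 45.3 and 47.3 scaled TPM against 43.0, 47.4, 45.0 and 54.1. On day 7 it was at 49.7, 46.8, 43.6 and 41.3 against 54.4, 57.5, 53.4 and 62.4, apart by little (0.34 ± 0.07, adjusted p = 0.00256). *Dlg2* (PSD-93) was at 3.02, 3.01, 2.82 and 2.60 against 2.52, 2.12, 1.68 and 2.70 on day 5 (-0.35 ± 0.15, adjusted p = 0.108) and at 3.31, 3.54, 3.65 and 3.34 against 5.58, 3.75, 4.53 and 5.65 on day 7 (0.48 ± 0.13, adjusted p = 0.0121). The PSD-95 partner *Dlgap1* (SAPAP1) rose on day 7 by 0.41 ± 0.06 (adjusted p = 0.000269).

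The Shank and Homer genes, which form the deeper layer of the density, did not move as families. *Shank1* was at 1.71, 1.40, 1.33 and 1.55 scaled TPM against 1.21, 1.32, 1.21 and 1.197 on day 5 (-0.25 ± 0.13, adjusted p = 0.166) and at 3.15, 3.73, 3.72 and 3.38 against 4.45, 4.90, 4.50 and 5.28 on day 7 (0.46 ± 0.09, adjusted p = 0.00222), and *Shank3* rose on day 7 as well (0.40 ± 0.10, adjusted p = 0.00758). *Shank2* was lower on both days, by -0.42 ± 0.10 (adjusted p = 0.0126) and -0.35 ± 0.07 (adjusted p = 0.00187). Its day 5 call was lost after quantile normalization (-0.26, adjusted p = 0.0863) and with the replicate block (adjusted p = 0.0526). *Homer1* (-0.34 ± 0.11, adjusted p = 0.0466) and *Homer2* (-0.36 ± 0.08, adjusted p = 0.00754) were lower on day 5 and not called on day 7, and the call of *Homer1* was lost in 11 of 16 alternatives. *Homer2* was at -0.23 after quantile normalization (adjusted p = 0.0436).

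The presynaptic and the postsynaptic genes were then set side by side. On day 5, 6 of the 33 presynaptic genes tested were higher and 4 lower, with a median log2 fold change of -0.07, and 1 of the 12 postsynaptic genes was higher and 4 lower, with a median of -0.17. Among all genes 14.8% were called higher and 17.9% lower. Without the library labelled shRNA-RUS day 5 replicate 4 the counts were 5 and 6 (median -0.07) and 2 and 5 (median -0.19), against 17.4% and 20.3% of all genes. On day 7 the counts were 21 higher and 2 lower (median 0.46) and 7 higher and 2 lower (median 0.36), against 23.4% and 25.8% of all genes. The difference of the medians, presynaptic minus postsynaptic, was 0.10 on both days. Since genes are not replicates, it is given without a test, and it ranged from 0.04 to 0.11 on day 7 when single libraries were left out.

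The same comparison within each library used the mean of log2(scaled TPM + 0.1), with each gene's mean over the 16 libraries taken away. Presynaptic minus postsynaptic was -0.14 to -0.03 with shRNA-CON and -0.11 to 0.08 with shRNA-RUS on day 5, with overlap. On day 7 it was -0.08 to 0.02 with shRNA-CON and 0.09 to 0.14 with shRNA-RUS. Groups that do not overlap were found for 47% of single genes in that comparison. Both sides stood higher with shRNA-RUS on day 7: the presynaptic mean was 0.06 to 0.09 with shRNA-CON and 0.31 to 0.42 with shRNA-RUS, and the postsynaptic mean 0.06 to 0.13 and 0.20 to 0.31.

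**Figure D3:**
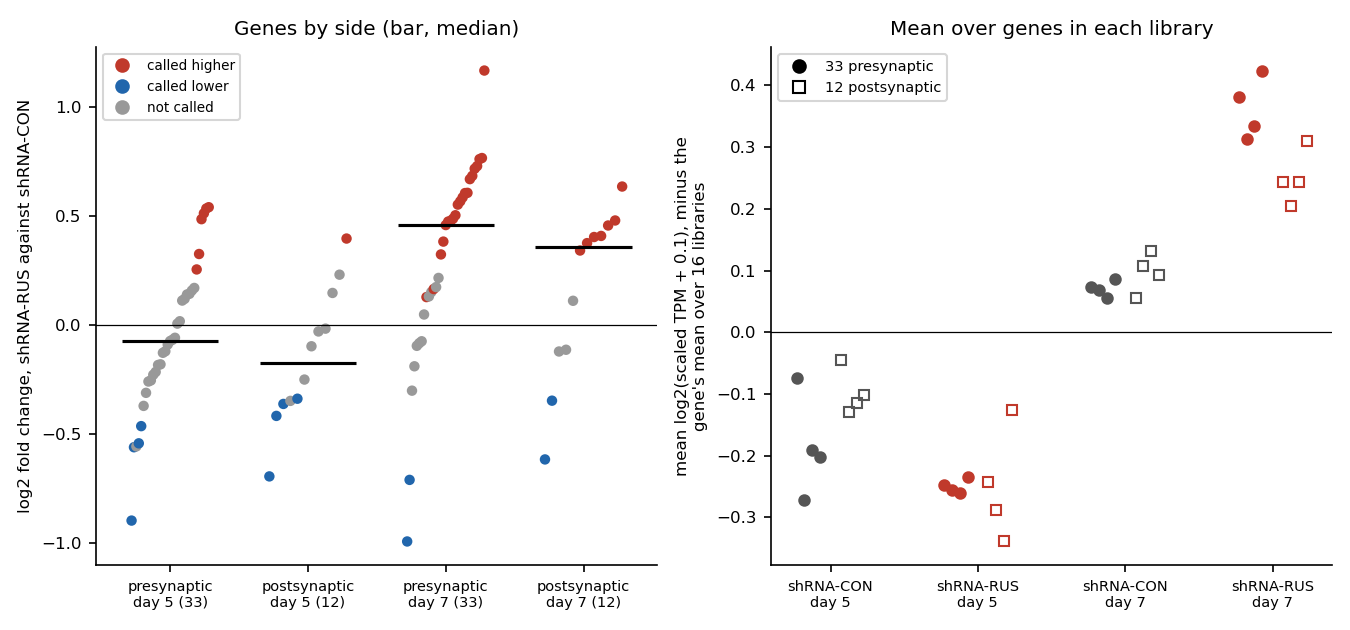
Left, log2 fold change of shRNA-RUS against shRNA-CON for each gene (points, red called higher, blue called lower, grey not called) with the median of the side (bar), by side and day. Right, the mean over the 33 presynaptic (circles) and 12 postsynaptic genes (squares) of the centred log2 level in each library. On day 7 all shRNA-RUS libraries lie above all shRNA-CON libraries on both sides, and the presynaptic circles reach 0.42.

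From day 5 to day 7 more of the synaptic genes rose than fell under either shRNA. The labels do not give extraction or sequencing runs, so a run that differed between the days cannot be told apart from the day. With shRNA-CON 24 of the 45 genes were called higher and 10 lower (all genes, 26.9% and 21.6%), and with shRNA-RUS 34 were higher and 6 lower (35% and 25.8%). The median log2 change was 0.27 with shRNA-CON, beside 0.07 over all genes, and 0.73 with shRNA-RUS, beside 0.13. With TPM as deposited, where the medians of all genes shifted to 0.20 and 0.41, the counts were 29 and 6 with shRNA-CON (36% and 14.4% of all genes) and 38 and 3 with shRNA-RUS (49.6% and 14.9%). After quantile normalization they were 21 and 11 (23.8% and 24.3%) and then 33 and 6 (29.4% and 28.8%). Without the library labelled shRNA-RUS day 5 replicate 4 they were 25 and 10 (28% and 22.5% of all genes) and then 36 and 7 (35.1% and 25.8%).

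All 8 active zone genes rose in both groups, from 0.23 for *Rims2* to 1.10 for *Bsn* with shRNA-CON and from 0.60 for *Rims2* to 1.67 for *Bsn* with shRNA-RUS. After quantile normalization *Rims2*, *Pclo* and *Unc13a* lost the call with shRNA-CON. The 2 values of *Rims2* were 0.38 and 0.92 with TPM as deposited and 0.14 and 0.40 after quantile normalization, and its call with shRNA-CON was also lost without shRNA-CON day 5 replicate 1 (adjusted p = 0.0554), day 7 replicate 2 (adjusted p = 0.0598) or day 7 replicate 4 (adjusted p = 0.0506). *Shank1* (1.17 ± 0.10 and 1.87 ± 0.10) and *Shank2* (1.05 ± 0.08 and 1.11 ± 0.08) rose as well. Among the presynaptic genes 21 rose and 8 fell of 33 with shRNA-CON and 25 and 5 with shRNA-RUS, and among the postsynaptic genes 3 rose and 2 fell of 12 and then 9 and 1. The shRNA-RUS counts without the library labelled shRNA-RUS day 5 replicate 4 were 26 and 6 and then 10 and 1, and the postsynaptic counts with shRNA-CON were 4 and 2. The decreases were led by *Rab3b* (-2.48 ± 0.09 with shRNA-CON and -2.21 ± 0.09 with shRNA-RUS) and *Slc17a7* (-1.47 ± 0.23 and -1.20 ± 0.23), the latter at -0.46 and -0.30 with a pseudocount of 1. *Syt11*, *Sv2a* and *Homer2* were called lower in both groups, but with shRNA-RUS all 3 had a positive change with TPM as deposited, and *Syt11* also after quantile normalization. The *Sv2a* call with shRNA-CON (-0.24, adjusted p = 0.0367) was lost in 8 of 24 alternatives, 6 of which left out 1 library, with an adjusted p of up to 0.45, and the call with shRNA-RUS (-0.24, adjusted p = 0.0332) was lost when any of 4 single libraries was left out, with an adjusted p of 0.0503 to 0.122.

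The knockdown effect itself differed between the days for 17 of the 45 genes, each in the direction of a higher value on day 7, where 15.2% of all genes tested were called in that direction and 14.6% in the other. Among genes that averaged 1 TPM or more the shares were 22% and 21.5%. No synaptic gene was called in the other direction, by limma on all 16 libraries, and none was at an unadjusted p under 0.05, where 23 were in the first direction, beside 21.1% of all genes in the first direction and 19.2% in the other at that p. Without the library labelled shRNA-RUS day 5 replicate 4 the counts were 21 and 1 (*Syt5*), against 18.4% and 16.3% of all genes. With TPM as deposited, where the median difference over all genes was 0.19 in place of 0.04, they were 27 and 0, beside 24% and 8.63% of all genes.

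With the pseudocount of 0.1 the largest differences, day 7 minus day 5, were those of *Sv2c* (1.01 ± 0.18, adjusted p = 0.000813), *Unc13a* (0.99 ± 0.16, adjusted p = 0.000268), *Syn3* (0.86 ± 0.24, adjusted p = 0.0122), *Syt4* (0.82 ± 0.17, adjusted p = 0.00236), *Dlg2* (0.82 ± 0.20, adjusted p = 0.00705) and *Shank1* (0.70 ± 0.14, adjusted p = 0.00164). With a pseudocount of 1 the difference was 0.585 for *Sv2c* and 0.858 for *Unc13a*, which then had the largest. On the presynaptic side 13 of 33 differed and on the postsynaptic side 4 of 12, and by role these were 5 of the 8 active zone genes, 4 of the 7 synapsins and vesicle membrane proteins, 2 of the 5 synaptotagmins, 2 of the 6 SNAREs and complexins and 4 of the 9 scaffolds. Leaving out the library labelled shRNA-RUS day 5 replicate 4 made these 15 higher and 1 lower (*Syt5*) on the presynaptic side and 6 higher on the postsynaptic side, with 3 SNAREs and complexins, 5 scaffolds, 1 neurexin (*Nrxn3*) and 1 neuroligin (*Nlgn3*) called higher. *Syn1* (0.59 ± 0.12, adjusted p = 0.00228) and *Unc13a*, both with the RE1 letters printed above, were among the genes called with all libraries in the fit. *Nlgn1*, the other gene with these letters, was not (0.22 ± 0.14, adjusted p = 0.274). Several of the called genes, such as *Syn3*, *Syt4* and *Snap25*, had no window to search, and the part of these letters was not tested. For *Sv2a*, *Syn2* and *Erc2* the difference lay between -0.02 and 0.01.

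**Figure D4:**
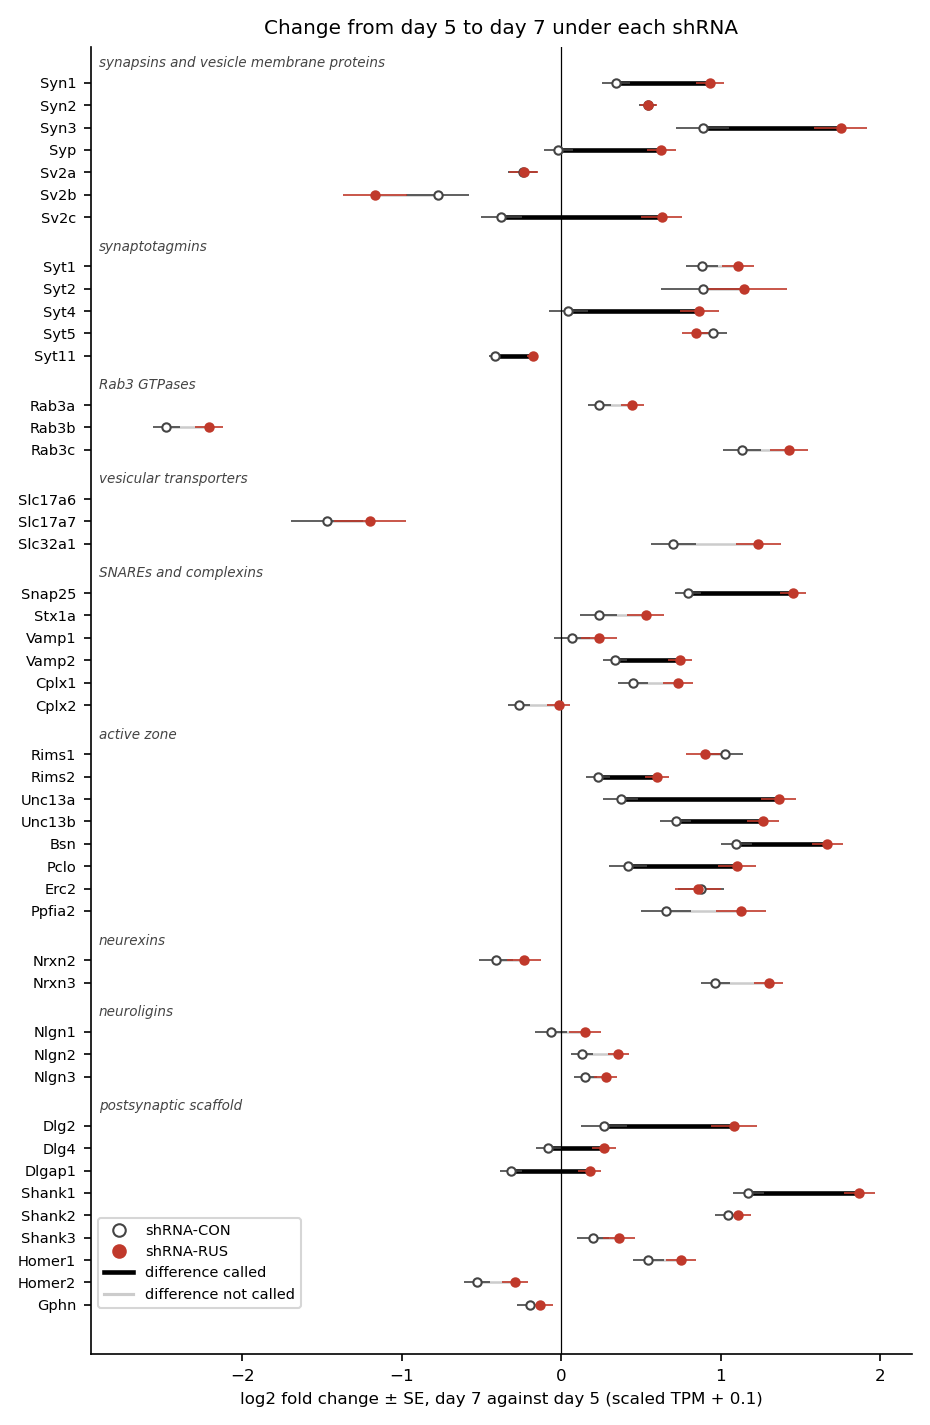
Log2 change from day 5 to day 7 with its standard error for each synaptic gene, with shRNA-CON (open) and shRNA-RUS (red); a black line joins the values where their difference, which equals day 7 minus day 5 of the knockdown effect, was called, and a grey line where it was not. The 17 black lines all run to the right, from shRNA-CON to shRNA-RUS, and *Rab3b* is far to the left under both.

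Other genes of the synapse, 44 presynaptic and 30 postsynaptic, were counted for comparison. On day 5, 4 of the 42 other presynaptic genes tested were higher and 5 lower (median -0.04), and 4 of the 30 other postsynaptic genes were higher and 7 lower (median -0.13), beside 14.8% and 17.9% of all genes. On day 7 there were 22 higher and 6 lower of 44 (median 0.23) and 16 higher and 2 lower of 30 (median 0.19), beside 23.4% and 25.8% of all genes. For the difference between the days, 17 and 2 of the other presynaptic and 16 and 0 of the other postsynaptic genes were called higher and lower, beside 15.2% and 14.6% of all genes. On day 7 the share called higher was 62.2% among the 45 genes and 50% and 53.3% in these lists. For the difference between the days it was 37.8% among the 45 genes and 38.6% and 53.3% in these lists. The differences between the lists were not tested.

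The 46 genes lie on 19 chromosomes in GRCm38, *Syn1*, *Syp* and *Nlgn3* on the X, and span from 3.90 kb for *Vamp2* (chr11:69088490-69092384, plus strand) to 1973 kb for *Dlg2* (chr7:90476672-92449247, plus strand). The genes called higher on day 7 had a median span of 62.5 kb and those called lower 309 kb, with *Syt5* (7.78 kb) the exception among the latter, and on day 5 the medians were 30.5 and 228 kb. Across the 45 genes Spearman's rho of the log2 fold change with the span was -0.18 on day 5 and -0.19 on day 7, beside -0.22 and 0.08 over 12880 and 13320 protein-coding genes averaging 1 TPM or more. With the length of the longest transcript rho was -0.12 and -0.05 across the 45 genes, and over the same protein-coding genes it was -0.23 on day 5 and 0.22 on day 7, with opposite signs. The part of transcript length in the results above was not tested. Genes are not independent replicates, and no p is given. Exons of 24 of the 46 genes overlap those of another annotated gene (GENCODE vM21), in 21 of them a gene on the opposite strand. The sources used here do not say whether reads were assigned by strand, so reads of such partners cannot be told apart, which holds for *Unc13a* (partner *Colgalt1*), *Syn1* (*Araf*), *Syn2* (*Timp4*), *Syn3* (*Timp3*), *Nrxn2* (*Slc22a12* and *Gm14964*), *Rab3a* (*Mpv17l2*) and *Ppfia2* (*Acss3* and *C230021G24Rik*). It also holds for *Syp*, *Sv2b*, *Syt4*, *Rab3b*, *Slc32a1*, *Pclo*, *Erc2*, *Nrxn3*, *Nlgn1*, *Dlgap1*, *Shank1*, *Shank3*, *Homer2* and *Gphn*, whose partners have no name beyond a clone or model number, and the other 3 (*Bsn*, *Nlgn3* and *Dlg2*) overlap genes on their own strand.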

How the data were processed

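RNA-seq was made from polyA RNA of 16 libraries, 4 each of shRNA-CON and shRNA-RUS on day 5 and day 7. Per the labels and the study's methods, the authors aligned reads with STAR to mm10 and GRCm38.99 and quantified genes with RSEM, and the deposited values are TPM, 1 column a library (versions are not given in the sources used here). TPM are scaled within a library, hold no counts and leave the depth unknown. The same tables hold the authors' DESeq2 comparison, which was not used. On day 5, 3 lines without a gene name, with 0.134 to 0.386% of the TPM, were left out.

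TPM were divided by median-ratio factors from genes of at least 1 TPM. Genes averaging 0.1 TPM or more were tested on log2(scaled TPM + 0.1) with limma 3.58.1 in R 4.3.3 (empirical Bayes with a trend, two-sided, Benjamini-Hochberg adjusted p under 0.05). Each day was fitted on its 8 libraries, and the changes between days and the difference of the knockdown effect on all 16. A fold change on this scale understates the change of low genes. Printed levels use factors over the 16 libraries. The labels do not say whether libraries of a group came from separate cultures, so p-values measure the spread between these libraries. The scripts were tested on simulated data.

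The genes, marker lists and lists of other synaptic genes were chosen with earlier results of these data known. All 46 genes could be named. By a rule, values in every library are given for the 6 largest called fold changes of each day and the 6 largest called differences between the days (genes averaging 1 TPM or more), for genes called in opposite directions on the days, and for the highest gene of each role. The other genes are given by range or change. Alternatives were pseudocounts of 1 and 0.01 TPM, a minimum of 1 TPM or none, TPM as deposited, quantile normalization, no trend, a replicate block and each library left out. Gene positions are from GENCODE vM21, which is not the authors' release, and promoter windows from RefSeq (GRCm38.p6). Windows for *Rims2*, *Shank2*, *Syt4*, *Syt5*, *Shank1*, *Vamp2*, *Snap25*, *Syn3*, *Nrxn2* and *Nlgn3* were not used here. Figures and annotation used Python 3.11.15 with pandas 2.3.3, scipy 1.17.1 and matplotlib 3.10.9.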

Additional observations from a re-analysis of the deposited data

Results flagged for a closer look

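In 12 of the 184 groups of 4 libraries of a synaptic gene, 1 library lay far from the other 3 (a gap to the nearest above the 95% critical value of Dixon's test, which chance gives in about 1 in 20 groups). These were, in scaled TPM, *Sv2a* at 9.31 and *Nrxn2* at 46.4 below the rest in shRNA-CON day 7 replicates 2 and 4, and *Stx1a* at 6.13 below it in replicate 3. *Syt1* at 6.87 and *Ppfia2* at 4.67 stood above the rest in shRNA-CON day 7 replicate 4. In the shRNA-RUS libraries of day 7, *Unc13a* at 7.36 (replicate 1), *Pclo* at 2.19 (replicate 3) and *Homer1* at 9.34 (replicate 2) lay below the rest and *Slc17a6* at 0.176 (replicate 1) above it. On day 5, *Vamp1* at 10.1 and *Homer2* at 7.51 were highest in the library labelled shRNA-RUS day 5 replicate 4, and *Shank1* at 1.32 in replicate 2.

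The knockdown effect differed between day 5 and day 7 (limma, adjusted p under 0.05) for 17 genes. Among the vesicle genes the log2 difference, day 7 minus day 5, was 0.59 for *Syn1*, 0.86 for *Syn3*, 0.65 for *Syp*, 1.01 for *Sv2c*, 0.82 for *Syt4* and 0.24 for *Syt11*, and among the SNAREs it was 0.65 for *Snap25* and 0.40 for *Vamp2*. In the active zone it was 0.37 for *Rims2*, 0.99 for *Unc13a*, 0.55 for *Unc13b*, 0.57 for *Bsn* and 0.68 for *Pclo*. In the postsynaptic scaffold it was 0.82 for *Dlg2*, 0.35 for *Dlg4*, 0.49 for *Dlgap1* and 0.70 for *Shank1*. Of these, *Dlg4* lost its call in 4 of 24 alternatives and *Rims2* in 1. The value moved by over 1.5 times for *Pclo* (0.44) and *Sv2c* (0.585) with a pseudocount of 1, for *Syt11* (0.41) with TPM as deposited, and for *Syt11* (0.56) and *Vamp2* (0.65) after quantile normalization.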

How the results depend on the processing

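The counts of called genes on day 7 moved little, to 27 or 28 higher and 3 to 5 lower under every alternative. On day 5 the count of lower calls was 5 after quantile normalization. With TPM as deposited the lower calls between the days were 6 with shRNA-CON and 3 with shRNA-RUS, and the difference of the knockdown effect was called for 27 genes, while over all genes the share of calls that were higher went from 45.4% to 22.7% on day 5, from 55.5% to 71.4% and from 57.5% to 76.9% between the days, and from 51.1% to 73.5% for the difference. The presynaptic minus the postsynaptic median on day 7 was 0.062 with a pseudocount of 1 and 0.16 after quantile normalization. On day 5 it was 0.055 with a pseudocount of 1. Changes in shRNA-RUS between the days reversed with TPM as deposited for *Sv2a* (0.087, adjusted p = 0.436), *Syt11* (0.14, adjusted p = 0.0127), *Cplx2* (0.31, adjusted p = 0.00777) and *Homer2* (0.031, adjusted p = 0.792), and after quantile normalization for *Syt11* (0.35, adjusted p = 1.49e-05). The cause was not tested.

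With 1 library left out, the counts ranged from 5 to 7 higher and 7 to 11 lower on day 5, 27 to 28 and 3 to 5 on day 7, 23 to 25 and 8 to 11 between the days with shRNA-CON, 33 to 36 and 5 to 7 with shRNA-RUS, and 16 to 21 and 0 to 1 for the difference of the effect. The difference of the medians ranged from 0.06 to 0.12 on day 5 and from 0.041 to 0.106 on day 7. Among 4665 results of single genes compared, differences called in neither fit changed sign 26 times under other alternatives and 42 times with 1 library left out, and none then exceeded 0.21 on the log2 scale.

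Same-numbered libraries did not deviate together (correlations of -0.11 to 0.00 on day 5 and of 0.00 to 0.03 on day 7), so the numbers were not taken as pairs. With the replicate block the counts were 5 higher and 5 lower on day 5 (9.88% and 12.1% of all genes) and 27 and 4 on day 7 (21.7% and 24%). Between the days they were 24 and 10 with shRNA-CON (26.3% and 20.9%) and 34 and 6 with shRNA-RUS (34.4% and 25.4%). For the difference of the effect they were 17 and 0 (14.1% and 13.7%). As the tables hold TPM and no counts, no counting error could be given for genes near 0 such as *Slc17a6*, *Slc17a7* and *Sv2b*.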
